A study of Mus musculus with 12 samples.

Results

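The set described here holds 9 genes of the Th17 programme, of 18193 genes measured: the cytokines Il17a and Il21, the chemokine Ccl20, the receptors Ccr6 and Il1r1, and the transcription regulators Rora, Batf, Maf and Ahr. They were taken by symbol from the series' table of array values, in which 25 of the 34945 probe sets with a single gene symbol belong to them. Rora has 9 probe sets, Maf 6, Il21, Ahr and Il1r1 have 2 each, and the others have 1. A gene with several is represented by its brightest probe set over the 12 arrays, called its main probe set, and the others are given beside it.

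Mouse CD4+ CD25- T cells of C57B/6J mice from Jackson labs, stimulated with antibodies to CD3 and CD28 and cultured with TGFb plus IL-6, were profiled on arrays. All 4 groups share that activation and those cytokines. They differ in the compound, 10 nM halofuginone (HF) or 10 nM MAZ1310, which the submitters describe as its inactive derivative, and in the time, 3 h or 6 h, with 3 arrays in each group. There was no group without compound or without the cytokines, so MAZ1310 at the same time is the control throughout, and the labels do not give the age of the mice. The labels call the arrays biological replicates but do not say whether they came from separate mice, cultures or days. A p-value here covers only the variation between these arrays and may not cover that between mice. Values are log2 intensities of one probe set and are compared between groups, never between genes.

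Th17 cells are helper T cells that defend barriers and drive several autoimmune inflammations. TGFb and IL-6 start their programme: IL-6 acts through STAT3, nuclear receptors such as the one encoded by Rora direct the lineage, and BATF with IRF4 opens many of its genes in activated T cells. IL-17A is the defining secreted product, IL-21 feeds back on the cells that make it, CCR6 is the receptor for the chemokine CCL20, and IL-1 signals through IL1R1. Halofuginone inhibits the glutamyl-prolyl-tRNA synthetase and is known for limiting Th17 differentiation.

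A few facts of the whole series bear on these genes. Arrays of one group correlated at 0.992 to 0.997, and array medians lay between 6.60 and 6.68. The T cell genes measured carried their high levels, with group means of Cd3e from 10.19 to 11.13 and of Cd4 from 9.25 to 10.02. Il2ra, which encodes CD25 and is induced by activation, had group means of 12.29 to 12.67 in these cells, labelled CD25-. Of all genes, 9.49% passed in limma for HF at 3 h (6.66% lower) and 17% at 6 h (11.7% lower). Of 6 regulatory T cell genes, 0 passed in limma for HF at either time (1 and 2 at unadjusted p under 0.05). At 6 h 6 of 9 T cell markers were lower with HF in limma, beside 11.7% of all genes. The summed level of the 9 markers was 14.13 to 14.37 with HF against 14.59 to 14.70 with MAZ1310. At 3 h 0 of 9 passed in limma (1 at unadjusted p under 0.05), and the sums were 14.45 to 14.76 with HF and 14.63 to 14.87 with MAZ1310. Of the markers of CD8, gamma delta T and NK cells (10 genes), B cells (9), myeloid cells (12), MHC class II presenting cells (8) and red cells (4), 0 passed in limma in either HF comparison, with 4 at unadjusted p under 0.05 at 3 h and 5 at 6 h. Over all arrays their summed levels were, in that order, 10.38 to 10.69, 9.65 to 9.95, 10.12 to 10.46, 10.22 to 11.44 and 8.45 to 8.85. Cd74, the highest of the MHC class II genes, had group means of 8.46 to 9.38. Whether such cells were present was not tested. The difference between the 3' and 5' control probe sets of actin, a sign of RNA quality, averaged 1.25 ± 0.279 with HF and 1.03 ± 0.220 with MAZ1310 at 3 h, and 1.07 ± 0.261 and 0.864 ± 0.139 at 6 h (SD, n = 3). The part of the T cell markers and of the actin difference in the results below was not tested, beyond the fit with the actin difference given in the closing section. In bulk RNA, fewer cells of a type and less RNA per cell cannot be told apart.

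Batf was higher and Maf lower with HF than with MAZ1310 at both times. In the main fit, which has no replicate block, none of the other 7 genes passed in either HF comparison by its main probe set. Batf was 1.40-fold higher at 3 h and 1.68-fold higher at 6 h, and Maf was 1.71-fold lower at 3 h and 1.86-fold lower at 6 h. The test was limma's over all 18193 genes, and genes under 0.05 after Benjamini-Hochberg adjustment are called. At 3 h 2 of the 9 genes were called, beside 9.49% of all genes, 1 of them higher (2.83% of all genes) and 1 lower (6.66%). At 6 h again 2 of 9 were called, beside 17% of all genes, 1 higher (5.22%) and 1 lower (11.7%). The arrays of HF and MAZ1310 did not overlap for 2 of the 9 genes at 3 h, where 22.8% of all genes had no overlap, and for 3 of 9 at 6 h, where the share was 36.8%. At 3 h Maf lost its call without HF replicate 1 and without the 4 arrays numbered 2, and both genes lost it with the actin difference and the replicate block in the fit, while leaving out any other single 3 h array kept both. With the replicate number as a block, or a block for each number within each time, 4 of the 9 genes were called at 6 h, beside 20.4% and 21.2% of all genes, the added genes being Il21 and Ccl20. At 3 h these fits called 2 and 3 of the 9, beside 13.3% and 13.9% of all genes, the added gene being Ccl20. The members were few and chosen by name, so these counts describe them and were not tested against the shares. The median HF difference of the 9 genes was 0.07 at 3 h and 0.03 at 6 h, against 0.03 and 0.02 over all genes.

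**Figure D1:**
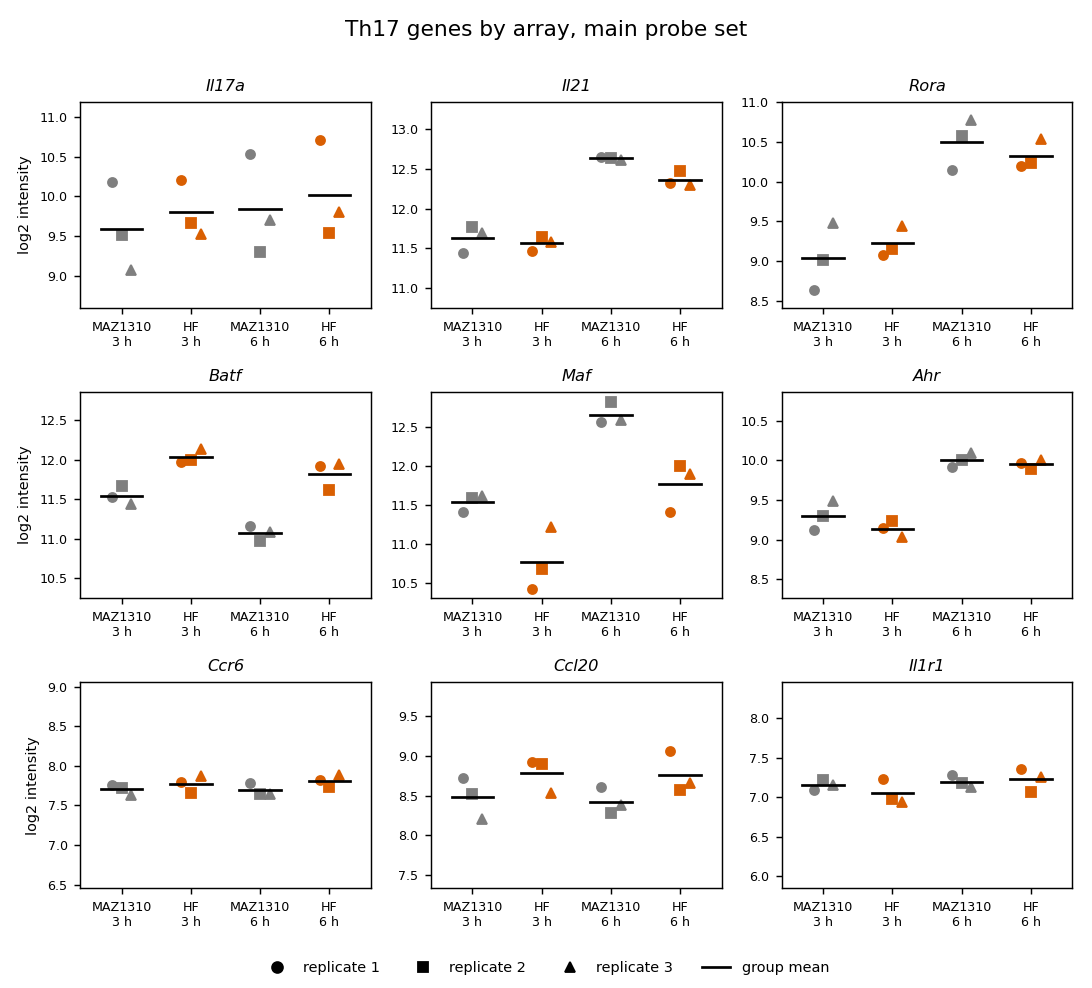
Log2 intensity of the main probe set of each of the 9 genes (vertical axes) in the 4 groups (horizontal axes), with 1 point per array, its shape giving the replicate number, grey for MAZ1310 and orange for HF, and a bar at the group mean. Batf with HF lies above, and Maf with HF below, every MAZ1310 array of the same time, while the Il17a points are spread from 9.07 to 10.71 with replicate 1 highest in all 4 groups.

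Il17a encodes the cytokine that gives Th17 cells their name. At 3 h the MAZ1310 arrays, replicates 1 to 3, read 10.18, 9.51 and 9.07, and the HF arrays 10.21, 9.66 and 9.53. At 6 h the MAZ1310 arrays read 10.53, 9.30 and 9.70, and the HF arrays 10.71, 9.54 and 9.80. The groups overlapped almost wholly, and replicate 1 was the highest in each of the 4 groups. The HF difference was 0.21 ± 0.34 (SE) at 3 h and 0.17 ± 0.34 at 6 h, with a 95% interval at 6 h of -0.54 to 0.89 (limma, adjusted p = 0.767 and 0.809). Within pairs of arrays of the same replicate number, HF was higher in 3 of 3 pairs at 3 h, by 0.03 to 0.46, and in 3 of 3 at 6 h, by 0.10 to 0.24. How many of all genes had 3 of 3 pairs in one direction was not counted, so pair counts here and below are descriptions only. With a block for each replicate number within each time it did not pass either (limma adjusted p = 0.153 and 0.23).

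Il21 encodes a cytokine made early in the Th17 response, and its 2 probe sets gave opposite answers on HF. The main one, 1450334_at, which the platform annotation pairs with a RefSeq transcript, read 11.44, 11.77 and 11.69 with MAZ1310 and 11.47, 11.64 and 11.58 with HF at 3 h. At 6 h it read 12.65, 12.64 and 12.61 with MAZ1310 and 12.32, 12.47 and 12.30 with HF, all 3 HF arrays below all 3 MAZ1310 arrays. Of the same-numbered pairs, HF was higher in 1 of 3 at 3 h and in 0 of 3 at 6 h. Its HF difference was -0.07 ± 0.09 at 3 h (95% interval -0.27 to 0.13, adjusted p = 0.73) and -0.27 ± 0.09 at 6 h (95% interval -0.47 to -0.07, limma adjusted p = 0.0624). With the replicate number as a block, or with a block for each number within each time, the same 6 h value passed (limma adjusted p = 0.0294 and 0.0263).

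The second Il21 probe set, 1447288_at, which the annotation pairs with an EST, rose with HF at both times. At 3 h it read 11.00, 11.66 and 11.13 with MAZ1310 and 11.79, 12.30 and 12.12 with HF. At 6 h the MAZ1310 arrays read 11.00, 10.87 and 10.80 and the HF arrays 12.35, 12.20 and 12.23. No HF array fell within the MAZ1310 range at either time. The HF difference was 0.81 ± 0.16 at 3 h and 1.37 ± 0.16 at 6 h (limma over all 45101 probe sets, adjusted p = 0.00783 and 6.38e-05), and with the actin difference and the replicate block in the fit the 3 h value was 0.63 with adjusted p = 0.363. The gap between the 2 probe sets within an array, second minus main, was larger with HF by 0.88 at 3 h and 1.64 at 6 h. At 3 h the gap was 0.32 to 0.66 with HF and -0.56 to -0.11 with MAZ1310, and at 6 h it was -0.27 to 0.03 and -1.81 to -1.64. The gap was formed after the probe sets were seen to differ, so it is given as a description with no test. A mean over both probe sets would therefore turn the direction of Il21 at 6 h, to 0.55 (limma adjusted p = 0.0034). What the second probe set detects was not tested, so no single direction of Il21 mRNA with HF is given here.

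The sequences upstream of the start of Il17a and Il21, the cytokine genes that the regulators of this set act on, are shown with the short motifs named for those regulators. They are the 250 bases before the start on GRCm38.p6 from RefSeq, 5′ to 3′ on the gene's strand, at chr1:20730655-20730904 (plus strand) and chr3:37232637-37232886 (minus strand). Capitals mark any match, on either strand, of AP-1 (TGANTCA), NFAT (GGAAA), the ROR core (AGGTCA), the MAF core (TGCTGA), the AHR core (GCGTG) or the core of the ATF4 and C/EBP composite element (TGATGCA). The AP-1 letters take any base at the centre and are looser than the element of BATF and its JUN partners.
Il17a: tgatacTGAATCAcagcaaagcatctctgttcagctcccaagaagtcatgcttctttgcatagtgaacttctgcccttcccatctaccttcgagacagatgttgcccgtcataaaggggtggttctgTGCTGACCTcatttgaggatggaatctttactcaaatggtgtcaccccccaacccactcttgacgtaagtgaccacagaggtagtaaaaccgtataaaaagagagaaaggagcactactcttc
Il21: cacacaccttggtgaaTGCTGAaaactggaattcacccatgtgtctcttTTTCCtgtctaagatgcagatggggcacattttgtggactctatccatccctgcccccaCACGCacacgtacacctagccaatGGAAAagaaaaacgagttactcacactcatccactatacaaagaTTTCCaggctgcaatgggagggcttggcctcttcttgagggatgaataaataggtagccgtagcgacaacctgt

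The Il17a window holds 1 match of the loose AP-1 letters, TGAATCA. It also holds 1 ROR core whose first base is at -120 and 1 MAF core at -123 that overlaps it, counted from the start. The Il21 window holds 3 NFAT matches, 1 MAF core and 1 AHR core, and neither AP-1 nor the ROR core. Of 32851 such windows in the table, 6.75% hold the AP-1 letters, 55.6% NFAT, 14% the ROR core, 16.1% the MAF core, 28.2% the AHR core and 2.68% the composite core. Windows were found for 7 of the 9 genes. A match is a description of letters and shows no binding.

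Ccl20 encodes the chemokine that draws CCR6-bearing cells, Th17 cells among them. At 3 h its arrays read 8.72, 8.52 and 8.20 with MAZ1310 and 8.92, 8.90 and 8.53 with HF, and at 6 h 8.61, 8.28 and 8.38 against 9.06, 8.57 and 8.66. The ranges overlapped at both times. HF was higher in 3 of 3 pairs of the same number at 3 h (0.21 to 0.39) and in 3 of 3 at 6 h (0.29 to 0.45). The difference was 0.31 ± 0.15 at 3 h (95% interval -0.02 to 0.63, limma adjusted p = 0.263) and 0.34 ± 0.15 at 6 h (95% interval 0.02 to 0.67, adjusted p = 0.163). With a block for each number within each time, Ccl20 passed at both times (limma adjusted p = 0.0201 and 0.00652). With the number alone as a block it passed at 6 h (adjusted p = 0.0256), and at 3 h it did not pass.

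The receptor genes stayed within narrow ranges, and whether their signal was above background was not tested. Ccr6 read 7.63 to 7.76 with MAZ1310 and 7.66 to 7.87 with HF at 3 h, and 7.64 to 7.78 and 7.73 to 7.88 at 6 h. Its HF difference was 0.07 (95% interval -0.11 to 0.25) at 3 h and 0.12 (-0.06 to 0.30) at 6 h, and neither passed. HF was higher in 2 of 3 same-numbered pairs at 3 h and in 3 of 3 at 6 h (0.04 to 0.22). Il1r1, the signalling receptor for IL-1, lay between 6.94 and 7.36 on all 12 arrays, near the array median, with HF differences of -0.10 (95% interval -0.31 to 0.11) and 0.03 (-0.18 to 0.24). Il1r1 was higher with HF in 1 of 3 same-numbered pairs at 3 h and in 2 of 3 at 6 h. Its second probe set, 1459777_at, lay at 2.72 to 3.28, near the bottom of the scale, with a difference of 0.33 ± 0.09 at 3 h (limma over all probe sets, adjusted p = 0.0491) and -0.04 ± 0.09 at 6 h.

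Batf encodes the AP-1 family factor that pairs with JUN proteins and IRF4 in activated T cells. At 3 h its arrays read 11.53, 11.66 and 11.44 with MAZ1310 and 11.97, 11.99 and 12.13 with HF. At 6 h they read 11.16, 10.97 and 11.08 with MAZ1310 and 11.92, 11.61 and 11.94 with HF. Every HF array was above every MAZ1310 array of its time, and HF was higher in 3 of 3 same-numbered pairs at each time. The difference was 0.49 ± 0.10 at 3 h and 0.75 ± 0.10 at 6 h (limma adjusted p = 0.00569 and 8.06e-05). With the actin difference and the replicate block in the fit, the 3 h difference was 0.55 and did not pass (adjusted p = 0.147). In order, the group means were 11.07 (MAZ1310, 6 h), 11.54 (MAZ1310, 3 h), 11.82 (HF, 6 h) and 12.03 (HF, 3 h), and of neighbouring groups only MAZ1310 at 3 h and HF at 6 h overlapped.

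The 250 bases upstream of Batf (chr12:85686470-85686719, plus strand, GRCm38.p6, RefSeq), shown because Batf is the gene of the set that rose, hold 2 NFAT matches, in capitals, and none of the other 5 motifs.
Batf: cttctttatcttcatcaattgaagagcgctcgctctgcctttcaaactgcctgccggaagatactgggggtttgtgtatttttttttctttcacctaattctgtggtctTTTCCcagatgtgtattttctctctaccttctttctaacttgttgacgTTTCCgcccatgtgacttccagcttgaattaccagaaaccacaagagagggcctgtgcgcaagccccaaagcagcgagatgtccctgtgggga

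Maf encodes c-Maf, a basic leucine zipper factor induced by IL-6 and TGFb that acts on Il21 and Il10. At 3 h its main probe set, 1456060_at, read 11.41, 11.59 and 11.61 with MAZ1310 and 10.42, 10.67 and 11.21 with HF. At 6 h it read 12.56, 12.82 and 12.58 with MAZ1310 and 11.41, 11.99 and 11.89 with HF. All HF arrays were below all MAZ1310 arrays of their time, and the HF arrays spread more widely (SD 0.402 and 0.311, against 0.114 and 0.142, n = 3). The difference was -0.77 ± 0.17 at 3 h and -0.89 ± 0.17 at 6 h (limma adjusted p = 0.00997 and 0.0018). The 3 h call was lost without HF replicate 1 (-0.60, adjusted p = 0.0551), without the 4 arrays numbered 2 (-0.70, adjusted p = 0.146) and with the actin difference and the replicate block (-0.75, adjusted p = 0.134).

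The other Maf probe sets were lower with HF too. At 6 h all 6 were called lower, by values from -0.38 to -1.07 (limma over all probe sets, adjusted p from 0.000490 to 0.0498). At 3 h all 6 differences were below 0, from -0.11 to -1.12, and 3 passed, 1456060_at, 1444073_at and 1435828_at. The 6 probe sets share one gene and one set of RNA samples and are not independent. The group means of the main probe set ran from 10.76 (HF, 3 h) through 11.54 (MAZ1310, 3 h) and 11.76 (HF, 6 h) to 12.65 (MAZ1310, 6 h), and MAZ1310 at 3 h and HF at 6 h overlapped.

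**Figure D2:**
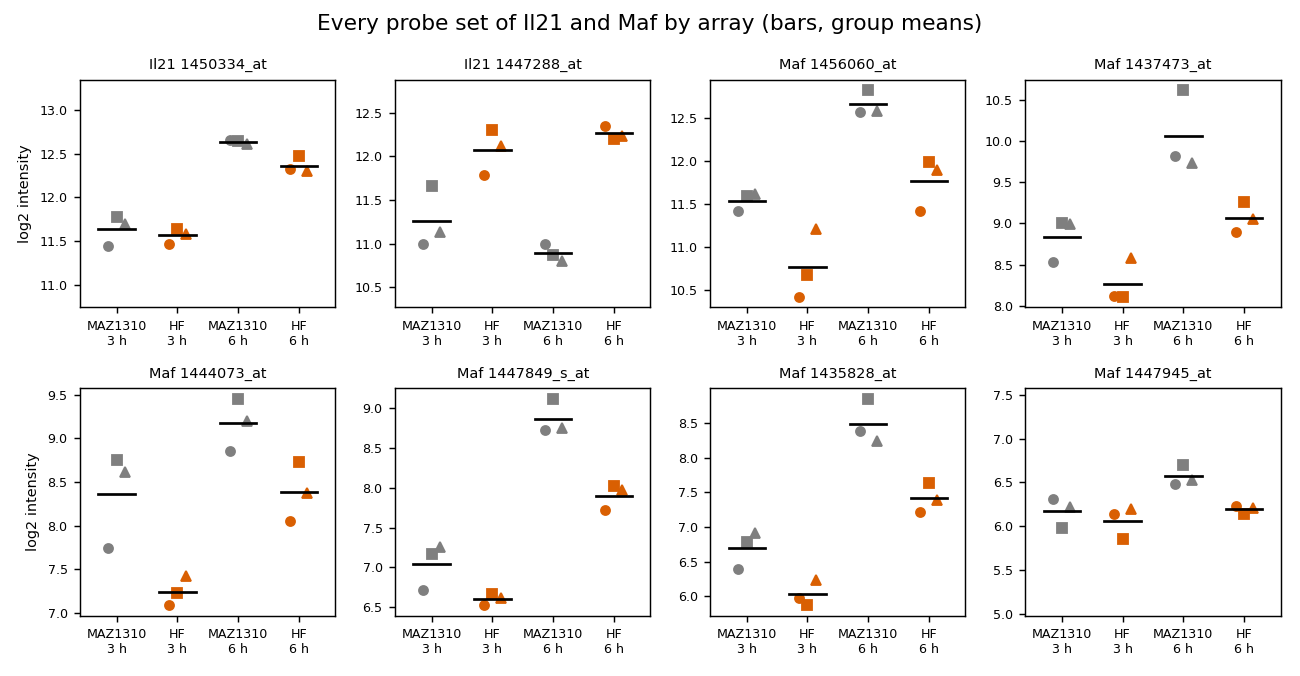
Log2 intensity (vertical axes) of the 2 probe sets of Il21 and the 6 of Maf in the 4 groups (horizontal axes), with 1 point per array, grey for MAZ1310, orange for HF, and bars at group means. The Il21 probe set 1447288_at is higher with HF at both times while 1450334_at is lower with HF at 6 h, and the 6 Maf probe sets have lower HF means at both times.

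Rora encodes the nuclear receptor RORα, which acts in Th17 differentiation. Its main probe set, 1424034_at, read 8.63, 9.01 and 9.48 with MAZ1310 and 9.08, 9.15 and 9.44 with HF at 3 h, and 10.15, 10.58 and 10.78 against 10.20, 10.24 and 10.54 at 6 h. The HF difference was 0.19 ± 0.19 at 3 h (95% interval -0.22 to 0.59) and -0.18 ± 0.19 at 6 h (-0.58 to 0.23), and it passed at neither time. HF was higher in 2 of 3 same-numbered pairs at 3 h and in 1 of 3 at 6 h. None of the 9 Rora probe sets was called for HF, with a smallest adjusted p of 0.456 at 3 h and 0.359 at 6 h.

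Ahr encodes the ligand-activated aryl hydrocarbon receptor, which raises IL-22 and IL-17 output in Th17 cells. Its main probe set, 1422631_at, read 9.12, 9.30 and 9.49 with MAZ1310 and 9.14, 9.23 and 9.03 with HF at 3 h, and 9.91, 10.00 and 10.09 against 9.96, 9.89 and 10.01 at 6 h. The HF difference was -0.17 ± 0.10 (95% interval -0.38 to 0.04) at 3 h and -0.04 ± 0.10 (-0.25 to 0.16) at 6 h. HF was higher in 1 of 3 same-numbered pairs at each time. The second probe set, 1450695_at, had group means of 6.59 to 6.78 and was not called in either HF comparison.

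Whether the HF effect itself differed between the times was tested as an interaction. None of the 9 genes passed in limma (0 also at unadjusted p under 0.05), where 1.8% of all genes did. The largest in size of the called genes was Batf, whose HF difference was 0.26 ± 0.14 larger at 6 h (95% interval -0.04 to 0.56, adjusted p = 0.501), and that of Maf changed by -0.12 ± 0.25.

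Between 3 h and 6 h the set moved more. With MAZ1310, Rora rose by 1.46 ± 0.19 (2.76-fold), Maf by 1.12 ± 0.17, Il21 by 1.00 ± 0.09 on its main probe set and Ahr by 0.70 ± 0.10, while Batf fell by 0.47 (SE 0.10; limma adjusted p from 2.49e-06 to 0.00308). That is 5 of 9 genes called, beside 19.8% of all genes, 4 of them higher (12.1%) and 1 lower (7.64%). With HF the same 4 rose: Rora by 1.10 ± 0.19, Maf by 1.00 ± 0.17, Ahr by 0.82 ± 0.10 and Il21 by 0.80 ± 0.09 (adjusted p from 2.52e-05 to 0.000842). That is 4 of 9 called, beside 15.6% of all genes, 4 higher (8.33%) and 0 lower (7.27%). Batf with HF differed by -0.21 ± 0.10 (95% interval -0.43 to 0.0044, adjusted p = 0.208).

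Il17a differed between the times by 0.26 ± 0.34 with MAZ1310 and 0.21 ± 0.34 with HF and did not pass. Ccr6, Ccl20 and Il1r1 did not pass either, with differences from -0.06 to 0.17. The median change over time of the 9 genes was 0.26 with MAZ1310 and 0.21 with HF, against -0.01 over all genes in both.

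The probe sets of a gene did not all follow its main one over time. For Rora, 5 of the 9 rose, by 1.35 to 1.79 with MAZ1310 and by 1.09 to 1.46 with HF, and the other 4 ranged from -0.06 to 0.24 and did not pass. For Maf all 6 rose with MAZ1310 and 5 of 6 with HF. The second Il21 probe set did not share the rise of the main one, with a difference of -0.37 ± 0.16 with MAZ1310 (adjusted p = 0.164) and 0.19 ± 0.16 with HF. With both probe sets averaged, the rise of Il21 with MAZ1310 was 0.31 and did not pass (adjusted p = 0.0687).

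**Figure D3:**
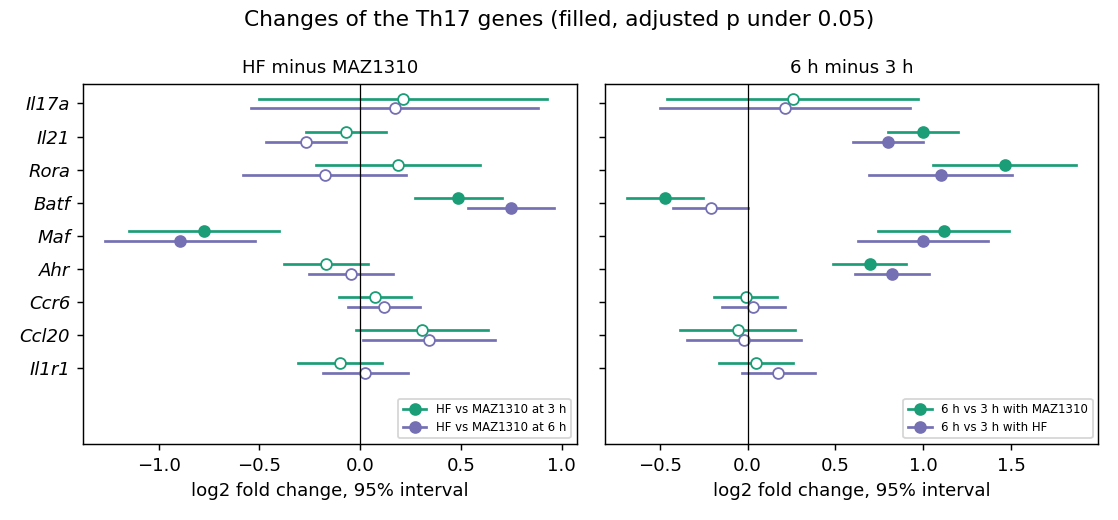
Log2 fold change (horizontal axes) of the main probe set of each gene (vertical axis) with its 95% interval from limma, HF minus MAZ1310 on the left and 6 h minus 3 h on the right, filled where the adjusted p is under 0.05. Batf and Maf are the filled points on the left, on opposite sides of 0, and Il21, Rora, Maf and Ahr lie to the right of 0 in both time comparisons.

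For the 3 genes whose group means spanned at least 1, the genes of most similar pattern were found among 1103 genes with a span that large, by Pearson correlation over the 12 arrays. These values describe 4 group means more than 12 separate points. Nearest to the main probe set of Il21 were Aven (r = 0.988), Cdkal1 (0.982) and Fastkd2 (0.982). Nearest to Rora were Dusp4 (0.966), Babam2 (0.957) and Gstt2 (0.954). Nearest to Maf were Fubp3 (0.982) and, in the third place, Nudcd2 (0.972), after a gene known only by a clone name.

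Among the other regulators of the programme, Junb, whose product pairs with BATF, was higher with HF at both times and Nfatc2 was lower. Of 14 measured transcription factors and partners, 3 were higher and 1 lower at 3 h, where 2.83% of all genes were higher and 6.66% lower, and 6 were higher and 1 lower at 6 h (5.22% and 11.7% of all genes), with a median of 0.02 at 3 h and 0.17 at 6 h against 0.03 and 0.02 over all genes. At 6 h Nfkbiz, which encodes the nuclear IκBζ, was higher by 1.08 ± 0.09, the AP-1 genes Fosl2 by 1.06 ± 0.10 and Junb by 0.85 ± 0.09, Stat3 by 0.60 ± 0.09 and Irf8 by 0.48 ± 0.11. Nfatc2, a calcium-responsive factor of T cell receptor signalling, was lower at 3 h (-0.69 ± 0.15) and at 6 h (-1.51 ± 0.15) by its main probe set. Its size depended on the processing, as given in the closing section. Nfkbiz (0.74 ± 0.09), Fosl2 (0.50 ± 0.10) and Junb (0.45 ± 0.09) were already higher at 3 h. Their limma adjusted p ran from 1.33e-06 to 0.00796. Il17f, Il22 and Il23r were not analysed here.

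Of 14 measured effector and surface genes, 2 were higher and 1 lower at 3 h, where 2.83% of all genes were higher and 6.66% lower. At 6 h 2 were higher and 0 lower, beside 5.22% and 11.7% of all genes. The cytokine genes Csf2, which encodes GM-CSF, and Lif were higher at 6 h, by 1.31 ± 0.20 and 0.76 ± 0.13. At 3 h Lif was higher by 0.57 ± 0.13 and the costimulatory receptor gene Icos by 0.37 ± 0.11, and the chemokine receptor gene Cxcr6 differed by -0.47 ± 0.13. The medians were 0.15 at 3 h and 0.05 at 6 h, against 0.03 and 0.02 over all genes.

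Receptors moved in both directions. Of 18 measured receptors and signal proteins of the Th17 cytokines, 1 was higher and 2 lower at 3 h, beside 2.83% and 6.66% of all genes. At 6 h 3 were higher and 3 lower, beside 5.22% and 11.7% of all genes. The medians were 0.02 and 0.11, against 0.03 and 0.02 over all genes. Il21r, the receptor of IL-21, was lower at both times, with differences of -1.12 ± 0.11 at 3 h and -0.63 ± 0.11 at 6 h (limma adjusted p = 1.19e-05 and 0.000677). Il6ra was higher at 3 h by 0.94 ± 0.17, Il6st, which encodes the shared signalling chain gp130, at 6 h by 0.84 ± 0.09, and the kinase gene Jak2 at 6 h by 0.66 ± 0.16. Tgfbr2, the type II receptor of TGFb, was lower at 6 h (-0.74 ± 0.15), and Il12rb1 at 3 h (-0.58 ± 0.16).

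Genes of a list drawn up as negative regulators of Th17 differentiation were called in both directions at 6 h. The list was chosen by name, and whether its members, Ikzf3 and Id2 among them, restrain the programme in these cells was not tested. Of 17 measured, 2 were higher and 0 lower at 3 h, where 2.83% of all genes were higher and 6.66% lower. At 6 h 7 were higher and 3 lower, where 5.22% of all genes were higher and 11.7% lower. The medians were -0.05 and 0.29, against 0.03 and 0.02 over all genes. Tbx21, which encodes the Th1 factor T-bet, was higher by 0.60 ± 0.11 at 3 h and 1.39 ± 0.11 at 6 h (limma adjusted p = 0.00301 and 6.56e-07). The cytokine signalling inhibitor gene Socs3 was higher at 6 h by 0.85 ± 0.16, the NF-κB inhibitor gene Tnfaip3 by 0.77 ± 0.12 and the repressor gene Gfi1 by 0.70 ± 0.08. Id2 and Id3, inhibitors of E proteins, were lower at 6 h (-0.88 ± 0.16 and -0.79 ± 0.19). Of 7 measured partners and targets of the aryl hydrocarbon receptor, 0 passed in limma at 3 h (1 at unadjusted p under 0.05), beside 9.49% of all genes. At 6 h 1 passed, Tiparp, higher by 0.40 ± 0.10, beside 17% of all genes. The receptor's classical target genes Cyp1a1 and Cyp1b1 were among the 6 that did not pass at 6 h.

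**Figure D4:**
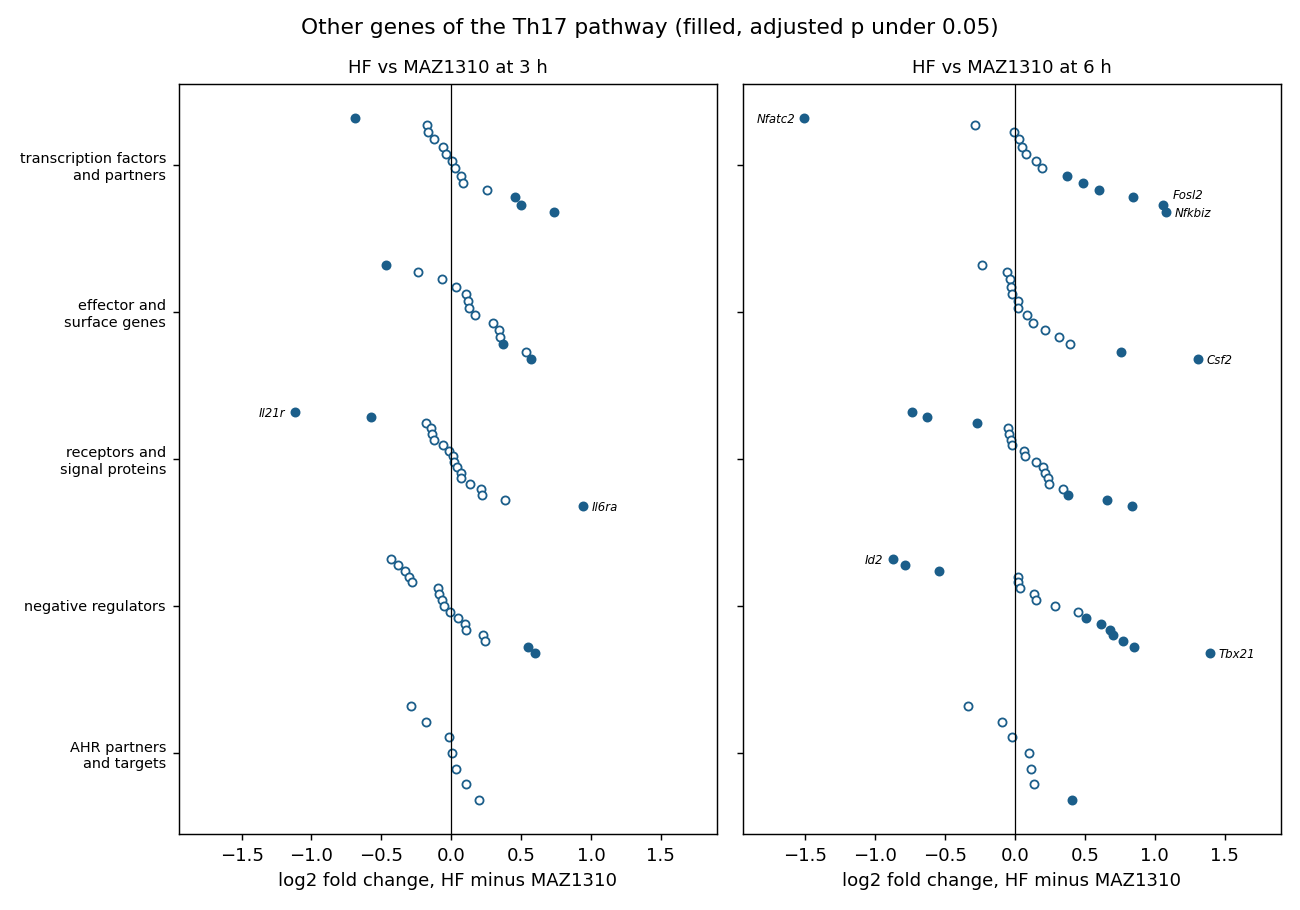
Log2 fold change of HF minus MAZ1310 (horizontal axes) at 3 h and 6 h for the measured genes of 5 lists of the Th17 pathway (vertical axis), with 1 point per gene ordered by size within a list, filled where the limma adjusted p is under 0.05 and named where such a change exceeds 0.85 in size. The filled points lie on both sides of 0 in 4 of the lists at 1 time or the other, with Tbx21 at 1.39 and Nfatc2 at -1.51 farthest out at 6 h.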

How the data were processed

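The authors deposited one table of array intensities for 45101 probe sets on 12 arrays, normalized with RMA per the submitters' processing notes. Its values are linear and were turned into log2 here. No scanner files, signal-over-background calls or scan batches were used, so dim probe sets could not be bounded, and the number of arrays limits the precision. Probe sets with several symbols (932), outside the annotation (9160) or controls (64) name no gene. Group means over all 12 arrays were fitted with limma 3.58.1 in R 4.3.3 (lmFit, eBayes) and p-values adjusted over all genes, or over all probe sets where a second probe set is tested. The script was tested on simulated data.

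All 9 genes are named. From each pathway list, up to 6 genes called in an HF comparison are named, by size. The members and lists were chosen with earlier results of these data known. Deviations from the group means of HF and MAZ1310 arrays with the same replicate number correlated at 0.242 to 0.391. Between the times, arrays with the same number correlated at 0.322, 0.502 and 0.475 with HF and at 0.251, 0.252 and 0.0289 with MAZ1310. Deviations of differently numbered arrays were not compared, and the labels do not say that the numbers pair arrays. The pair differences and the blocks take them as pairs. The main fit has no block, so its SE, intervals and adjusted p include any offset shared by arrays of one number. The alternatives were another normalization, offset, filter, choice of probe set and variance model, replicate blocks, the actin difference, and leaving out arrays.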

Additional observations from a re-analysis of the deposited data

How the results depend on the processing

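Batf and Maf kept their direction under each setting run in both HF comparisons, from 0.44 to 0.57 and -0.995 to -0.603 at 3 h and from 0.69 to 0.86 and -1.01 to -0.72 at 6 h, and both stayed called at 6 h. At 3 h the count of genes called was 1 without the 4 arrays numbered 2, where 3.61% of all genes were called, against 9.49% in the main fit. When 1 array was left out the count was 1 to 2, beside 6.72% to 12.1% of all genes. With the actin difference and the replicate block together the count was 0 (limma, 2 at unadjusted p under 0.05). That fit called 2.3% of all genes, 419 in place of 1726. At 6 h the count was 4 with the replicate block and 4 with the block within time, which added Il21 and Ccl20 (20.4% and 21.2% of all genes were called, against 17%). It was 2 each time 1 array was left out, beside 12.6% to 14.2% of all genes. Il21 at 6 h also passed with log2(intensity + 50), with the dimmer genes left out and with only the arrays compared (limma adjusted p = 0.0427, 0.0401 and 0.0226). Neither block changed another call of these 9 genes, apart from Ccl20 at 3 h with the block within time. The second Il21 probe set, whose alternatives were chosen after seeing the data, stayed between 0.63 and 1.01 at 3 h and between 1.20 and 1.42 at 6 h.

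The changes of sign were all in differences that had not been called, and of these Il21 at 6 h became called in the other direction. With a gene's probe sets averaged, the HF difference was 0.37 for Il21 and 0.11 for Il1r1 at 3 h, and 0.55 for Il21, 0.040 for Ahr and -0.0077 for Il1r1 at 6 h. Il21 at 3 h was 0.0020 with cyclic loess, and Il1r1 at 3 h was 0.021 with the actin difference and block. When 1 array was left out, the 3 h difference ranged from -0.046 to 0.51 for Il17a, from -0.16 to 0.0021 for Il21 and from -0.018 to 0.41 for Rora. At 6 h it ranged from -0.17 to 0.52 for Il17a, from -0.091 to 0.0028 for Ahr and from -0.040 to 0.11 for Il1r1. The interaction of Maf ranged from -0.29 to 0.10, and the time difference of Il17a from -0.088 to 0.55 with MAZ1310 and from -0.13 to 0.45 with HF. The cause of these shifts was not tested.

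Of the 12 calls of pathway genes at 3 h and 26 at 6 h, none changed direction under any of these settings. Some sizes varied widely. Over 18 settings Nfatc2 ranged from -0.78 to -0.098 at 3 h and from -1.62 to -0.23 at 6 h. Id2 at 6 h ranged from -0.997 to -0.19. With the actin difference and the replicate block 2 stayed called at 3 h and 11 at 6 h, in fits that called 2.3% and 5% of all genes. Without the arrays numbered 2, 5 and 19 stayed called, beside 3.61% and 9.55% of all genes. In the main fit the shares of all genes were 9.49% and 17%.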
